A study of Danio rerio with 17 samples.

Results

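The animal and vegetal poles of sectioned zebrafish (Danio rerio) oocytes were set against the segments between them, to describe RNAs that both poles share, RNAs that both poles lack, and RNAs that belong to 1 pole. Each frozen oocyte had been cut into 5 segments that run from A (animal end) to E (vegetal end). Ribosomal RNA was depleted, and the remaining RNA of a segment was sequenced. The pole group was formed of the 7 libraries labelled A or E, and the inner group of the 10 libraries labelled B, C or D, which together are all 17 libraries of the series. Segment A gave 4 libraries, E gave 3, B gave 3, C gave 4 and D gave 3. They came from 4 oocytes, and oocyte 2 contributed segment A but not E. The groups differed in position along the axis and in no treatment or genotype. The strain, the stage of the oocytes, the thickness of a segment and the fish of origin are not given in the sources used here. Libraries of 1 oocyte are sections of the same cell, so they are not independent, and p-values measure the spread between these libraries.

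In a fish oocyte, the animal pole is where the sperm enters and where the embryo proper later forms above the yolk. The vegetal pole receives RNAs that the Balbiani body, a transient aggregate of organelles and RNA, carries there during early oogenesis, including germ plasm RNAs and the RNAs that later set the dorsal side. Both poles are also end caps of a sphere, which hold more cortex for their volume than the sections between them. The classical localized RNAs of fish oocytes are described as RNAs of 1 pole.

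Libraries of the pole group held 7165714 to 21267552 reads in genes, and libraries of the inner group held 4054233 to 23672322. All 5 libraries of oocyte 1 were shallower, with at most 9319365 reads, and carried at most 0.00239% spike-in reads, against 0.185% to 0.802% in the others. No label names a batch, so depth, spike-in share and the oocyte itself cannot be told apart for oocyte 1. Segment C of oocyte 3 stood apart from the rest on the second principal component, with a score of 40.3 against -9.67 to 3.20. Of the 9 oocyte markers, 8 passed the filter on low counts, and the summed level of the list was 2985 to 3894 CPM (reads scaled to a common library total, here without trimmed mean of M values scaling, TMM) in pole libraries and 2941 to 4074 in inner libraries. Of the 19 follicle cell markers, 5 passed, with a summed level of the whole list of 78.1 to 377 CPM in pole libraries and 87.9 to 284 in inner libraries, so these groups overlapped. The part of follicle cells in the results was not tested. Blood cell markers summed to at most 16.8 CPM in pole libraries and 15.7 in inner libraries. Gene symbols are printed as the symbol table spells them, which gives many zebrafish genes in capitals.

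With TMM scaling, no RNA passed the main edgeR test in the comparison of the pooled poles with the pooled inner segments. Of 10409 genes tested, 0 were called higher (0%) and 0 were called lower (0%) in the pole libraries at an edgeR adjusted p under 0.05, with 139 higher and 127 lower at an unadjusted p under 0.05. Together these are fewer genes than an unadjusted p under 0.05 gives by chance. DESeq2 called 0 genes higher and 1 lower. No gene had all 7 pole libraries above all 10 inner libraries, and none had all of them below. Without oocyte 1, edgeR again called 0 genes in either direction, with 87 higher and 101 lower at an unadjusted p under 0.05. Within oocyte 1 alone it called 0, with 166 and 192. That fit set 2 pole sections against 3 inner sections of 1 cell, so its 0 calls carry little weight. All these fits have 1 coefficient per group, so differences between segments of a group count as spread. With 1 coefficient per segment, edgeR called 4 genes higher and 0 lower, with 258 and 189 at an unadjusted p under 0.05. The 4 are described with the vegetal RNAs. With the poles tested apart, edgeR called 0 genes in the same direction at each pole, while DESeq2 called 1, SDK1, lower at each (adjusted p of 0.00281 in A and 0.0218 in E), and edgeR without a filter on low counts called 2 higher. With TMM scaling, the data were precise enough to bound such a difference for the abundant RNAs only. Single-gene levels are given in CPM with library sizes scaled by TMM. For the 2684 genes that averaged 100 CPM or more, the 95% interval of the pole minus inner difference lay within 1 log2 unit of 0 for 2283 (85.1%). The estimate lay within 0.5 for 2453 (91.4%). These intervals treat the libraries as independent, which sections of 1 oocyte are not. They also depend on the scaling. With the factors of the authors' normalized table, the median difference of all genes was -0.44 log2 units, against 0.03 with TMM. Among the 3470 genes with the lowest levels, up to 19.05 CPM, the interval lay within 1 log2 unit for 0, and the median standard error was 1.57. For such RNAs a shared difference of 1 log2 unit could not be bounded.

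The RNA with the smallest p in the pooled comparison was MAP3K1, a kinase that activates MAP kinase cascades. Its level was 566, 412, 544 and 733 CPM in segment A and 1726, 1210 and 1906 CPM in segment E, against a range of 140 to 633 CPM with a median of 357 in the inner libraries. All 3 vegetal libraries lay above every inner library, whereas 1 of 4 animal libraries did. The pole group averaged 1014 ± 606 CPM (SD, n = 7) and the inner group 360 ± 143 CPM (SD, n = 10). The difference was 1.49 ± 0.29 log2 units (SE) with an edgeR adjusted p of 0.124. Tested apart, segment E was higher than the inner libraries by 2.16 ± 0.27 log2 units with an edgeR adjusted p of 4.92e-06, while segment A was 0.65 ± 0.26 above them with an adjusted p of 0.755. The vegetal value was the larger, since A minus E was -1.52 with an edgeR adjusted p of 0.00882. MAP3K1 was therefore counted among the RNAs of the vegetal pole, and it was the only one of that class whose animal mean also lay above each of the B, C and D means. In the pooled comparison its edgeR adjusted p was 0.0185 without segment A of oocyte 2, 0.0490 without segment A of oocyte 3 and 0.0425 without segment C of oocyte 3. It was 0.9997 with the oocyte as a block. Without oocytes 1, 2, 3 and 4 in turn it was 0.9996, 0.563, 0.05825 and 0.9998.

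MAP3K1 was 1 of the 9 RNAs described here from those with the smallest p-values among those whose A and E means both exceeded the B, C and D means, and none of the other 8 passed the pooled test. TRAF7, a RING ubiquitin ligase, had 166, 272, 223 and 365 CPM in segment A and 205, 201 and 136 CPM in segment E, against 42.2 to 190 CPM with a median of 106 in the inner libraries. The pole libraries were higher on the whole, but 2 of the 7 fell within the inner range. The difference of 0.91 ± 0.27 log2 units had an unadjusted p of 0.0023 and an edgeR adjusted p of 1.00. LAPTM4A, a membrane protein of lysosomes, had 199, 112, 86.5 and 173 CPM in segment A and 216, 104 and 97.6 CPM in segment E, against 58.3 to 108 CPM with a median of 76.9 in the inner libraries. CHCHD10, a protein of the mitochondrial intermembrane space, averaged 100 ± 54.2 CPM in the pole libraries (SD, n = 7) and 42.4 ± 23.5 CPM in the inner libraries (SD, n = 10). BCKDK, the kinase that inhibits branched-chain ketoacid dehydrogenase, averaged 470 ± 111 CPM in the pole libraries and 321 ± 61.8 CPM in the inner libraries. RGP1, a subunit of a Rab6 exchange factor, averaged 94.3 ± 30.0 CPM in the pole libraries and 44.4 ± 24.3 CPM in the inner libraries (SD, n = 7 and 10 for both genes). The ribosomal protein RNA RPL28 averaged 142 ± 82.1 CPM in the pole libraries, against 74.8 ± 20.7 CPM in the inner libraries. For shcbp1, which encodes a binding partner of the SHC adaptor, and FER, a cytoplasmic tyrosine kinase, the pooled difference lay mostly at the vegetal pole. The RNA of shcbp1 had 213, 102 and 211 CPM in segment E, but 1.16 to 54.6 CPM in segment A and 0 to 44.8 CPM in the inner libraries. Across these 9 RNAs the unadjusted p ran between 1.19e-05 and 0.0129.

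**Figure D1:**
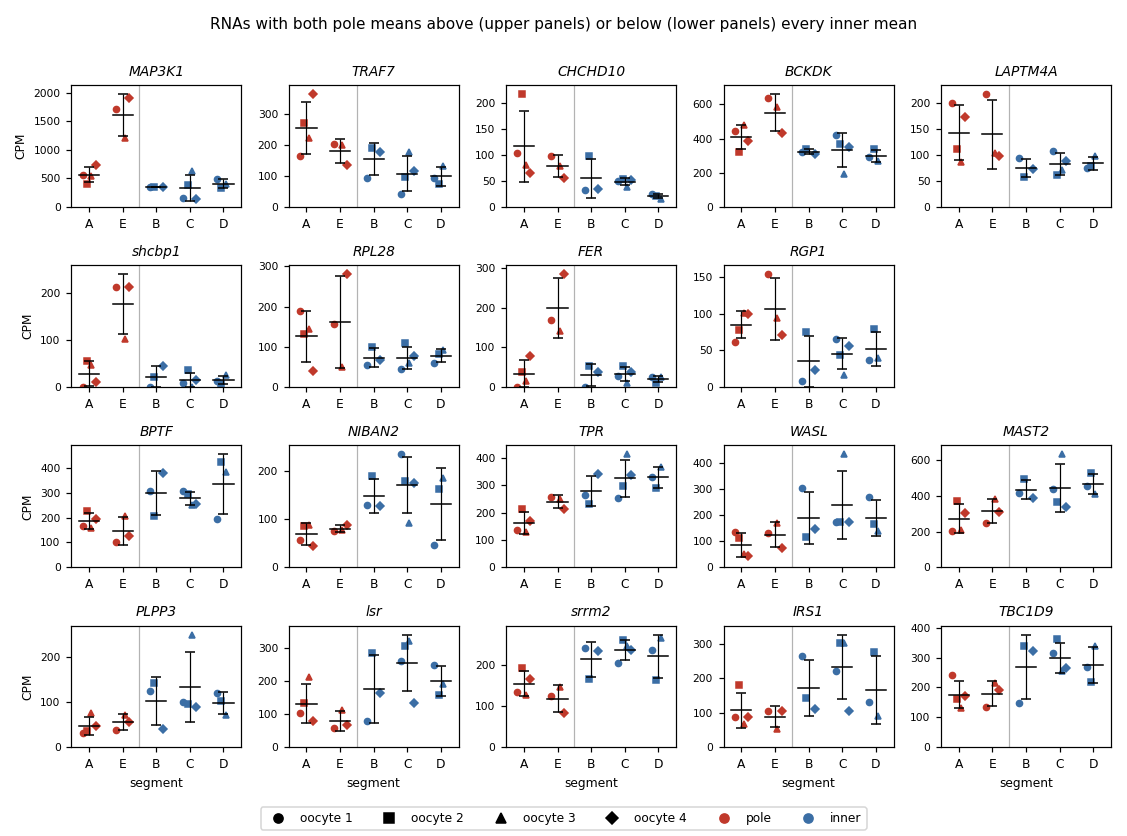
Levels in TMM-scaled CPM of the 9 RNAs described among those whose A and E means both lay above the B, C and D means (upper panels) and the 10 with the smallest p among those below them (lower panels). Points are libraries, pole libraries left and inner libraries right of the grey line, with the shape giving the oocyte; bars are means and SD over the libraries of a segment. In every panel at least 1 pole library falls inside the range of the inner libraries.

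With TMM scaling, depletion at both poles was likewise not called by edgeR. BPTF, the large subunit of the nucleosome remodelling factor NURF, had the smallest p among them. Its level was 167, 226, 158 and 196 CPM in segment A and 103, 208 and 126 CPM in segment E, against 196 to 422 CPM with a median of 301 in the inner libraries. Of the 7 pole libraries, 4 lay below every inner library. The difference was -0.83 ± 0.21 log2 units with an unadjusted p of 0.000551 and an edgeR adjusted p of 0.923. Segment A was 0.69 and segment E 1.05 log2 units below the inner libraries. TPR, a nucleoporin of the nuclear basket, had 135, 214, 128 and 169 CPM in segment A and 258, 251 and 213 CPM in segment E, against 233 to 413 CPM in the inner libraries. All 4 animal libraries but only 1 of the 3 vegetal ones lay below the inner range. NIBAN2 averaged 74.2 ± 17.3 CPM in the pole libraries and 152 ± 54.7 CPM in the inner libraries. MAST2, a microtubule-associated kinase, averaged 290 ± 71.9 CPM in the pole libraries and 448 ± 86.8 CPM in the inner libraries (SD, n = 7 and 10 for both genes). The splicing factor RNA srrm2 averaged 139 ± 34.3 CPM in the pole libraries and 225 ± 35.9 CPM in the inner libraries (SD, n = 7 and 10).

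WASL, the N-WASP activator of branched actin, had 133, 111, 50.4 and 42.2 CPM in segment A and 131, 168 and 73.7 CPM in segment E, against 114 to 431 CPM in the inner libraries. PLPP3, a phosphatase of bioactive lipids, averaged 51.1 ± 17.5 CPM in the pole libraries and 114 ± 55.6 CPM in the inner libraries (SD, n = 7 and 10). For both of these RNAs the highest inner value was that of segment C of oocyte 3, at 431 CPM for WASL and 250 CPM for PLPP3, far above the other C libraries. The remaining RNAs of the 10 were lsr, a receptor for lipoproteins, IRS1, the adaptor of the insulin receptor, and TBC1D9, which has the domain of a Rab GTPase activator. They averaged 109 ± 52.8, 98.9 ± 41.0 and 178 ± 40.5 CPM in the pole libraries, against 214 ± 80.4, 195 ± 87.1 and 283 ± 66.2 CPM in the inner libraries. With TMM scaling, the differences of these 10 RNAs ran between 0.63 and 1.15 log2 units in size, and none had an edgeR adjusted p below 0.923. With the authors' factors, described below, all 10 were called lower, at edgeR adjusted p-values of 0.00818 to 0.0212.

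At the lower limit of detection, 2 of the genes tested had at most 3 reads in every pole library. The filter on low counts kept such a gene only if most inner libraries read it, so their reads there are no separate result. SDK1, a cell adhesion protein of the immunoglobulin superfamily, had 0 reads in each of the 4 libraries of segment A and 1, 0 and 0 reads in the 3 of segment E. Its inner counts were 0, 1310 and 546 reads in segment B, 11, 58, 0 and 121 in segment C and 137, 114 and 0 in segment D. The inner libraries were thus far from even, with 3 of the 10 at 0 reads. Set against a floor of 3 reads in each pole library, the inner mean of 13.2 CPM makes SDK1 at least 61.0-fold lower at the poles. Without segment B of oocyte 2 the inner mean was 8.17 CPM and the bound 37.7-fold. It was the 1 gene that DESeq2 called, with an adjusted p of 0.000317, whereas its edgeR adjusted p was 0.923. The other gene, zgc:103586, had at most 2 reads in any pole library and over 3 reads in 8 of the 10 inner libraries, with 97, 108, 348 and 158 reads in segment C. No gene tested had at most 3 reads in every inner library, but the filter would have kept such a gene only if nearly all pole libraries read it. Both genes were singled out after their counts were seen.

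The order of the 5 segment means shows how often the poles stood together. In the 2684 genes that averaged 100 CPM or more, the highest 2 means were those of A and E in 157 genes (5.85%), the lowest share among the 10 possible pairs of segments. Neighbouring segments at 1 end held them far more often: D and E in 480 genes (17.9%), and A and B in 399 (14.9%). The lowest 2 means were those of A and E in 266 genes (9.91%), against 455 (16.95%) for D and E and 448 (16.7%) for A and B. All other pairs held them less often than A and E, the next being B and C in 246 genes (9.17%). Over all genes tested, most of which are less precisely measured, A and E held the highest 2 means in 1049 genes (10.1%) and the lowest 2 in 878 (8.44%). The main axis of variation among libraries followed position from A to E. The first principal component took 26.8% of the variance, of which 0.0123% lay between pole and inner libraries. The component with the largest share between them was the fourth, with 30.5% of its 6.49%, and none of the components separated the pole libraries from the inner ones.

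**Figure D2:**
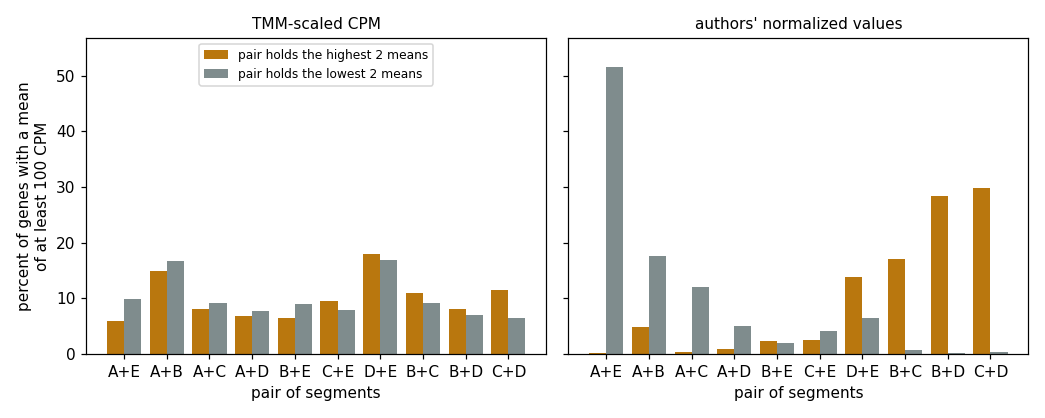
Percent of the 2684 genes averaging 100 CPM or more in which each pair of segments held the highest 2 (brown) or the lowest 2 (grey) of the 5 segment means, with TMM-scaled levels in the left panel and the authors' normalized values in the right panel. On the TMM scale A and E together are the rarest pair at the top (5.85%), while on the authors' scale they are the lowest 2 in 51.6% of these genes.

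With TMM scaling, more genes differed from the inner segments at the vegetal pole than at the animal pole, whereas with the authors' factors segment A had 416 lower and 1 higher and segment E 71 lower and 42 higher. On the TMM scale, segment E was higher than the inner libraries in 68 genes (0.653%) and lower in 19 (0.183%) at an edgeR adjusted p under 0.05, and segment A was higher in 2 genes (0.0192%) and lower in 8 (0.0769%). DESeq2, on the same 10409 genes, called more genes lower than higher at each pole. It gave 89 higher and 130 lower in segment E, and 7 higher and 96 lower in segment A. The comparisons share the inner libraries, and they differ in the number of libraries at the pole. Segment A was higher than segment E in 72 genes (0.692%) and lower in 114 (1.1%). Genes that differed from the inner libraries at 1 pole, and between the poles in the same direction, were assigned to that pole. In this way 62 genes (0.596%) were higher and 18 (0.173%) lower at the vegetal pole only, and 2 (0.0192%) were higher and 4 (0.0384%) lower at the animal pole only. Another 4 (0.0384%) were lower at the animal and higher at the vegetal pole. A further 3 genes, espl1 among them, differed in segment E but not between the poles, and were assigned to neither. The call of espl1 was lost without any 1 of 15 of the 17 libraries, the exceptions being B of oocyte 1 and D of oocyte 2. Without oocyte 1, segment A differed from the inner libraries in 0 genes, and segment E was higher in 33 and lower in 2.

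**Figure D3:**
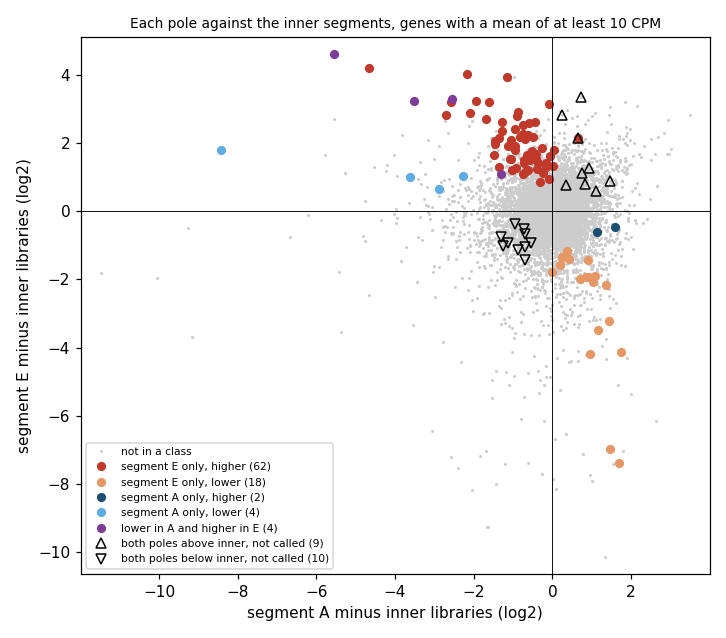
Difference from the inner libraries in segment A (horizontal) and in segment E (vertical), in log2 units, for the tested genes that averaged 10 CPM or more. Coloured points are genes assigned to 1 pole or to both in opposite directions, and open triangles are the 19 described RNAs nearest to a shared enrichment or depletion. The 62 genes higher at the vegetal pole only lie mostly to the left of 0, and no coloured point stands for a gene called in the same direction at both poles.

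The 62 genes higher at the vegetal pole only lay mostly below the inner libraries at the animal pole. Their median difference from the inner libraries was 1.89 log2 units in segment E and -0.74 in segment A, and 59 of the 62 lay below 0 in segment A. The D mean was the highest inner mean in 53, and in 29 the mean increased at each step from A to E. The 6 with the smallest p are described first. The RNA of anln, anillin, which scaffolds the actin ring of dividing cells, had 3016, 2212 and 3910 CPM in segment E and 245, 297, 320 and 397 CPM in segment A, against 339 to 897 CPM with a median of 508 in the inner libraries. All vegetal libraries lay above, and 3 of 4 animal libraries below, every inner library. Segment E differed from them by 2.52 ± 0.23 log2 units with an edgeR adjusted p of 1.68e-08. The RNA of sybu, syntabulin, a linker of cargo to kinesin that acts in dorsal determination, had 2531, 1540 and 2446 CPM in segment E and 131, 71.8, 33.3 and 18.9 CPM in segment A, against 24.1 to 458 CPM in the inner libraries. MAP3K7, the kinase TAK1, was flat outside segment E, with 706, 597 and 766 CPM there, 175 to 248 CPM in segment A and 117 to 275 CPM in the inner libraries. PPP1R3B, which targets protein phosphatase 1 to glycogen, had 832, 669 and 603 CPM in segment E, 130 to 230 CPM in segment A and 179 to 253 CPM in the inner libraries. The transcription factor RNA bach2a had 1066, 691 and 1527 CPM in segment E and 16.9 to 48.9 CPM in segment A, against 21.1 to 287 CPM. MAP3K1, described above, was also among the 6.

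Of these genes, 4 passed a pooled test in fits that model each segment or the trend along the axis. With 1 coefficient per segment and equal weight for each segment, the edgeR adjusted p of the pooled difference was 0.00171 for sybu and MAP3K1, 0.00417 for anln and 0.0264 for MAP3K7. With axial position as a covariate it was 0.00122 for sybu, 0.00145 for MAP3K1 and 0.00641 for anln. Of these, anln and sybu were 0.75 and 1.15 log2 units below the inner libraries in segment A, and MAP3K7 was 0.05 above them, so their excess over the inner libraries lay in segment E.

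Of 8 RNAs listed as published vegetal RNAs, 7 matched a gene entry and 6 passed the filter on low counts. All 6 (DAZL, hwa, TRIM36, VRTN, CELF1 and sybu) were higher in segment E, where 0.653% of all genes tested were. The list was drawn up with these levels known, so this count is a description only. DAZL, an RNA-binding protein of germ cells, had 807, 534 and 1194 CPM in segment E and 0.782 to 3.27 CPM in segment A, against 0.0446 to 162 CPM in the inner libraries, with the highest of these in segment D. Its pooled pole mean of 363 CPM was above the inner mean of 45.5 CPM with an SD of 490 CPM within the pole group, and all of the excess lay in the vegetal libraries. CELF1, which controls RNA decay and translation, had 847, 812 and 1245 CPM in segment E and 57.8 to 149 CPM in segment A, against 20.2 to 446 CPM in the inner libraries. VRTN, known in mammals for setting the number of vertebrae, had 971, 698 and 1504 CPM in segment E and 19.5 to 81.7 CPM in segment A, against 12.8 to 218 CPM in the inner libraries. The E minus inner differences of these 3 RNAs were 4.22, 2.59 and 3.22 log2 units, with edgeR adjusted p-values of 0.00173, 9.53e-05 and 8.58e-06. The call of DAZL was lost without oocyte 1 or oocyte 4, at an edgeR adjusted p of 0.0890 for either. Of 4 RNAs listed as published animal RNAs, 0 were called higher in segment A and 1, CPEB1, was called lower in segment E. The rest were called at neither pole. In segments A and E, pou5f3 differed from the inner libraries by 1.01 and -1.19 log2 units, CCNB1 by 0.50 and -0.51, and gdf3 by -0.13 and 0.13.

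Of the 7 germ plasm RNAs tested, 6 lay below 0 in segment A, with a median difference of -0.84 log2 units, and 4 lay above 0 in segment E, with a median of 0.24. Of all genes tested, 49.2% lay above 0 in segment A and 47.9% in segment E. Among the germ plasm RNAs, DND1, which protects germ cell mRNAs, was higher in segment E. It had 609, 450 and 462 CPM there and 19.2 to 111 CPM in segment A, against 123 to 314 CPM in the inner libraries, and E minus inner was 1.30 log2 units with an edgeR adjusted p of 0.034. That p was 0.0522 with the oocyte as a block. It was 0.0512 to 0.380 without any 1 of 7 libraries. These were all libraries of segment E, segment B of oocyte 1 or 4, and segment C of oocyte 2 or 4. The call of DND1 was also lost whichever whole oocyte was left out, at an edgeR adjusted p of 0.07311 to 0.2257. ca15b, a carbonic anhydrase RNA of the germ plasm, was lower in segment A and is described below. The other 5 did not pass at either pole. The RNA of buc, the organiser of the Balbiani body, was even along the axis at 1592 ± 132 CPM in the pole libraries (SD, n = 7) and 1662 ± 262 CPM in the inner libraries (SD, n = 10). NANOS3, DDX4, tdrd7a and TDRD6 had pooled differences of -0.26, -0.46, -0.19 and -0.06 log2 units. With the poles apart, TDRD6 had 0.19 in segment A and -0.50 in segment E.

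The 18 genes lower at the vegetal pole only were the reverse of the vegetal RNAs. Their median difference was -1.95 log2 units in segment E and 0.94 in segment A, all 18 lay above 0 in segment A, and in 14 the mean decreased at each step from A to E. The D mean was the lowest inner mean in 17. EXD2, a nuclease, had 0.148, 0.288 and 0.670 CPM in segment E and 277, 170, 171 and 247 CPM in segment A, against 0.044 to 191 CPM with a median of 53.0 in the inner libraries. Its lowest inner value belonged to segment C of oocyte 4, which lay below all vegetal libraries. The RNA of foxh1, a transcription factor of Nodal signalling, had 60.2, 14.4 and 48.6 CPM in segment E and 822 to 1298 CPM in segment A, against 59.4 to 744 CPM. The RNA of fbxo5, an inhibitor of the anaphase-promoting complex, had 12.985, 18.5 and 37.6 CPM in segment E and 440 to 672 CPM in segment A, against 27.0 to 679 CPM. Segment D was also low for fbxo5, at 32.7, 27.0 and 57.5 CPM, against means of 543 CPM in B and 213 CPM in C. BAHCC1, CCDC102A and gtse1, the last of them a regulator of mitotic microtubules, completed the 6 with the smallest p. They had E minus inner differences of -4.17, -4.13 and -1.92 log2 units and edgeR adjusted p-values of 0.00214, 0.0057 and 0.00863. CCDC102A was low in segment D as well, with 7.995, 56.6 and 27.0 CPM, against 1.77, 3.35 and 24.5 CPM in segment E. CPEB1, which regulates the polyadenylation of stored mRNA, was lower by 1.44 log2 units in the same comparison, with 171, 143 and 353 CPM in segment E and 921 to 1304 CPM in segment A, against 263 to 1043 CPM (edgeR adjusted p of 0.038). Pooled over both poles, these 7 genes had pole minus inner differences between 0.18 and 0.94 log2 units. The calls of CCDC102A and fbxo5 were lost without segment E of oocyte 1 or 3, that of gtse1 without segment E of oocyte 1 or 4, and that of foxh1 without segment E of oocyte 3. That of CPEB1 was lost without any 1 of 11 libraries, with an edgeR adjusted p of 0.0510 to 0.475. These were segments A, C and E of oocyte 1, segments A and C of oocyte 2, segments A and E of oocyte 3, segment C of oocyte 4 and any library of segment B. With a whole oocyte left out, 6 of these 7 calls were lost without oocyte 1, all but that of foxh1 (edgeR adjusted p of 0.0642 to 0.596). Without oocyte 3 the calls of CCDC102A, CPEB1, fbxo5 and foxh1 were lost, without oocyte 4 those of BAHCC1 and gtse1, and without oocyte 2 that of CPEB1.

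At the animal pole only, aurka and zgc:162200 were higher. Aurora kinase A, encoded by aurka, drives the assembly of the meiotic spindle, which lies at the animal pole of a mature egg. Its RNA had 513, 513, 531 and 400 CPM in segment A and 160, 119 and 71.7 CPM in segment E, against 86.0 to 241 CPM with a median of 170 in the inner libraries. All 4 animal libraries lay above every inner library, and the difference of 1.60 ± 0.25 log2 units had an edgeR adjusted p of 0.00212. It was 0.0694 without oocyte 1 and 0.0856 without oocyte 3. The inner means were 211 CPM in segment B, 171 CPM in C and 99.7 CPM in D.

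The 4 genes lower at the animal pole only were ca15b, arhgef4, GOLGA3 and PAWR. In 2 of the 4 the mean increased at each step from A to E. In segment E all 4 lay above the inner libraries, by 0.64 to 1.78 log2 units with a median of 1.01, and none was called there. ca15b had 21.0, 11.6, 19.4 and 63.4 CPM in segment A and 344, 427 and 231 CPM in segment E, against 102 to 364 CPM in the inner libraries. All 4 animal libraries lay below the inner range, and 2 of the 3 vegetal libraries lay inside it. A minus inner was -2.89 ± 0.41 log2 units with an edgeR adjusted p of 0.00048, which was 0.0694 without oocyte 1. arhgef4 had 1.16 to 9.91 CPM in segment A and 71.5 to 195 CPM in segment E, against 14.1 to 135 CPM. GOLGA3, a golgin, had 12.7 to 39.0 CPM in segment A and 165 to 310 CPM in segment E, against 52.3 to 268 CPM. PAWR, a regulator of apoptosis, had at most 2 reads in every library of segment A and 132, 66.2 and 55.0 CPM in segment E, against 0 to 65.7 CPM in the inner libraries. It was at least 122-fold lower in segment A than the inner mean, by a floor of 3 reads in each animal library. The inner libraries of PAWR were uneven, with 1.79 to 65.2 CPM in segment B, 0 to 17.4 in C and 30.8 to 65.7 in D. No animal library lay below every inner library for this RNA. The calls of GOLGA3 and PAWR were lost without any 1 of the 4 animal libraries, and that of arhgef4 without segment A of oocyte 1, 2 or 3. That of PAWR was also lost with the oocyte as a block, at an edgeR adjusted p of 0.061, and without any 1 library of segment D or segment E of oocyte 1 or 3. With a whole oocyte left out, the calls of arhgef4, GOLGA3 and PAWR were lost whichever of the 4 oocytes it was (edgeR adjusted p of 0.0576 to 0.321).

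In 4 RNAs the poles differed from the inner libraries in opposite directions. The RNA of hwa, huluwa, the membrane protein that sets the dorsal side of the embryo, had at most 1.16 CPM in segment A and 579, 419 and 678 CPM in segment E, against 0.245 to 48.9 CPM in the inner libraries. Its levels in segment B were also low, at 0.245, 0.357 and 4.86 CPM, and only 1 animal library lay below every inner library. TRIM36, a ubiquitin ligase needed for the vegetal microtubule array, had 5.82 to 48.3 CPM in segment A and 1985, 1279 and 4106 CPM in segment E, against 32.2 to 842 CPM. The RNA of slbp2, a binding protein of histone mRNA stem-loops, had 21.9 to 51.7 CPM in segment A and 2492, 2137 and 2180 CPM in segment E, against 64.5 to 476 CPM, with no overlap between the 3 groups. VAT1, a membrane protein of vesicles and mitochondria, had 87.1, 101, 145 and 191 CPM in segment A and 731, 620 and 728 CPM in segment E, against 190 to 497 CPM. Their edgeR adjusted p-values ran between 0.00682 and 0.0214 for segment A and between 1.92e-06 and 0.0167 for segment E. The call in segment A was lost without the library of oocyte 3 for all 4. It was also lost without that of oocyte 2 for slbp2, hwa and VAT1, without that of oocyte 1 for TRIM36 and VAT1, and without that of oocyte 4 for hwa and TRIM36. With a whole oocyte left out, the call in segment A was lost for all 4 without oocyte 1 or 3. It was lost for VAT1 without oocyte 2 and for hwa without oocyte 4 (edgeR adjusted p of 0.234 and 0.0799). The call of VAT1 in segment E was lost without segment E of oocyte 1 or 4 and without the whole of oocyte 1, 3 or 4, and that of TRIM36 without the whole of oocyte 4 (edgeR adjusted p of 0.0532).

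**Figure D4:**
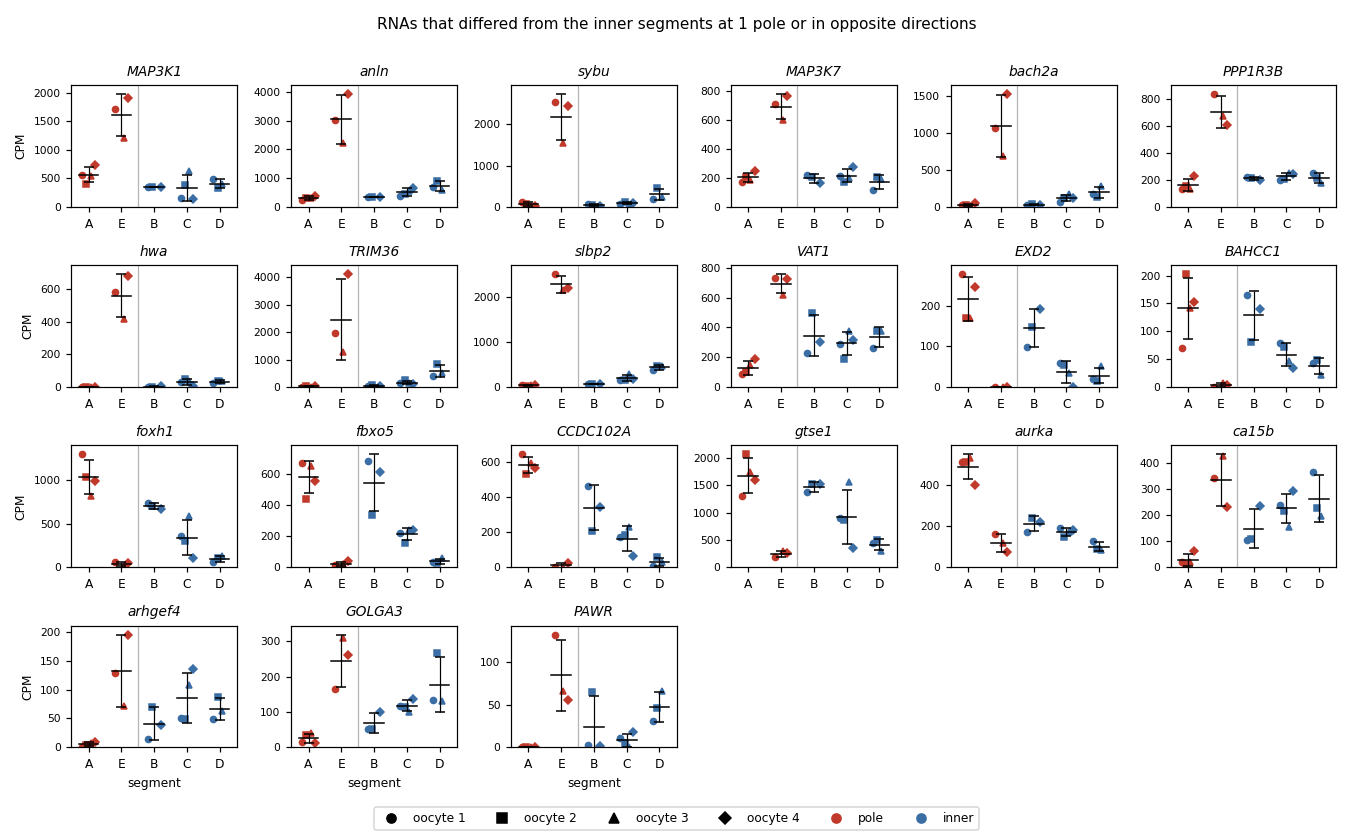
Levels in TMM-scaled CPM of the named RNAs assigned to 1 pole or to opposite directions, from MAP3K1 to PPP1R3B higher at the vegetal pole only, from hwa to VAT1 opposite, from EXD2 to gtse1 lower at the vegetal pole only, aurka higher and ca15b to PAWR lower at the animal pole only. Points are libraries, pole libraries left and inner libraries right of the grey line, with the shape giving the oocyte; bars are means and SD over the libraries of a segment. In the upper panels segment E stands above all others, while segment A is at or below the inner segments except for MAP3K1.

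In edgeR with TMM scaling, no group of functionally related genes had a member called in the pooled comparison, where 0% of all genes were. Ribosomal protein genes stood highest. Of 82, 71 passed the filter on low counts and 55 of these lay above 0. Their median pole minus inner difference was 0.31 log2 units, against 0.03 for all genes tested, of which 5468 of 10409 lay above 0. Both pole means exceeded all inner means in 20 of the 71, where 10.1% of all genes did. The median was 0.13 in segment A and 0.51 in segment E. The summed level was 5304 to 9159 CPM without TMM in pole libraries and 3634 to 7603 in inner libraries, so the groups overlapped. The median was 0.65 within oocyte 1 alone and 0.21 without it. Relative to the median of all genes it lay above 0 under each scaling tried, but on the authors' scale the list's own median was -0.14. Nuclear genes of oxidative phosphorylation had a median of 0.24, with 44 of 65 above 0, and on the authors' scale -0.21. Genes encoded in the mitochondrial genome were at 0 reads for 11 of 13 entries, and none passed the filter.

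With TMM scaling, groups tied to the cortex, the surface or the cytoskeleton had median pole minus inner differences between -0.02 and 0.09 log2 units. The median of all genes tested was 0.03 on this scale and -0.44 with the authors' factors. The part of the cortex in these values was not tested. The median difference was -0.00 log2 units for cortical actin genes, with 16 of 34 above 0, and -0.02 for genes of endocytosis and yolk uptake, with 20 of 42 above 0. It was 0.02 for the secretory pathway, with 29 of 56 above 0, 0.07 for microtubule genes, with 17 of 29, and 0.09 for genes of the egg coat and cortical granules, with 10 of 18. Within the actin list, anln and MYH9, a non-muscle myosin heavy chain, were higher than the inner libraries in segment E. MYH9 had 422, 442 and 687 CPM in segment E and 1.94 to 109 CPM in segment A, against 34.1 to 196 CPM in the inner libraries (edgeR adjusted p of 0.0147; 0.184 without segment E of oocyte 4, and 0.268, 0.0629 and 0.317 without oocytes 1, 2 and 4). Histone variants and chromatin proteins of the egg had a median of -0.10, with 6 of 21 above 0, and genes of meiosis and the cell cycle a median of -0.02, with 19 of 41 above 0. Genes of germ cell RNA binding and the piRNA pathway had a median of 0.18, with 31 of 45 above 0, and 0.01 within oocyte 1 alone. Of them, 4 (DAZL, CELF1, DND1 and RBPMS2) were higher and CPEB1 lower in segment E, where 0.653% and 0.183% of all genes were. In segment A, 1 of the list, ca15b, was lower, where 0.0769% of all genes were. RBPMS2, an RNA-binding protein of the Balbiani body, had 512, 496 and 568 CPM in segment E and 65.5 to 162 CPM in segment A, against 78.5 to 378 CPM (edgeR adjusted p of 0.00426; 0.104 without oocyte 4).

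The count of calls in the pooled comparison changed with the scaling of the libraries. The authors' normalized table divides each library by 1 factor, and that factor, relative to the median-ratio (RLE) factor computed from the same counts, was nearly constant within a segment. It was 1.290 to 1.294 in A, 1.09 to 1.16 in E, 0.870 to 0.892 in B, 0.911 to 0.919 in C and 0.802 to 0.821 in D. The rounded library totals on that scale were 9376000 to 12087000 in the pole libraries and 12828000 to 15703000 in the inner libraries, without overlap. With these factors the median pole minus inner difference of all genes was -0.44 log2 units, against 0.03 with TMM, and edgeR called 209 genes lower at the poles (2.01%) and 0 higher (0%). All 209 also lay below 0 with TMM, where their median was -0.38, and 83 of them had an unadjusted p under 0.05 there. All 7 pole libraries lay below all 10 inner libraries in 51 genes (0.49%) on this scale, and in 0 on the TMM scale.

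Among the 209 were all 10 RNAs nearest to a shared depletion, BPTF first with -1.32 log2 units and an edgeR adjusted p of 0.00818 on the authors' scale. With the poles tested apart on that scale, segment A was lower in 416 genes (4%) and higher in 1 (0.00961%), and segment E was lower in 71 (0.682%) and higher in 42 (0.403%). Lower at each pole were 7 RNAs: BPTF, lsr, srrm2, espl1, CHAF1B, PIAS2 and ERBIN. Separase, encoded by espl1, had 301, 371, 278 and 414 CPM in segment A and 142, 213 and 248 CPM in segment E, against 252 to 572 CPM in the inner libraries on the TMM scale. CHAF1B, a subunit of chromatin assembly factor 1, averaged 244 ± 65.0 CPM in pole libraries and 351 ± 93.8 CPM in inner libraries (SD, n = 7 and 10). In the same way, buc, with a pooled difference of -0.06 log2 units and the level profile given above, had -0.53 on the authors' scale with an edgeR adjusted p of 0.0426. Without oocyte 1 the authors' factors gave 0 calls in either direction in edgeR, with 1237 genes lower and 13 higher at an unadjusted p under 0.05. Without segment C of oocyte 3 they gave 176 lower and 1 higher. How the authors set the factors is not given in the sources used here. Whether pole sections hold less RNA for a given input than inner sections cannot be told apart from the scaling in libraries made from a set amount of RNA.

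**Figure D5:**
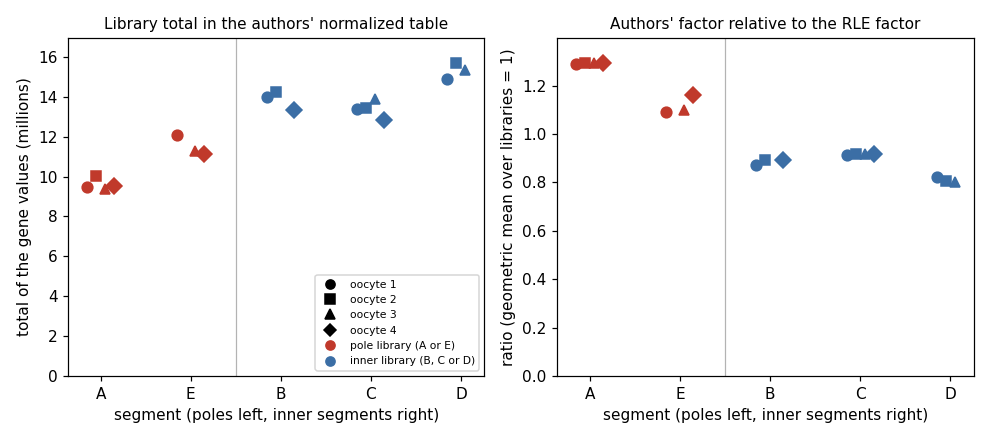
Total of the gene values of each library in the authors' normalized table (left), and the ratio of the authors' factor to the RLE factor (right), by segment with the poles on the left. The totals of the pole libraries all lie below those of the inner libraries, and the ratio is above 1 in each pole library and below 1 in each inner library.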

How the data were processed

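The counts analysed were deposited by the authors as whole reads per Ensembl gene for each of 17 libraries, together with a table of normalized signal in which 1 factor scales each library, as tested here; 100% of its values came out as whole reads within 0.01 and equalled the counts, so the count test on recovered reads is the main test. Per the submitters' processing notes, Trimmomatic, STAR 2.5.3a, HTSeq and DESeq2 were used with the genome build GRCz11; per the labels' protocols, 5.5 ng of RNA entered ribosomal depletion. No strand setting is given in the sources used here, which leaves overlapping and antisense genes uncertain, and reads with more than 1 alignment were not counted (6.88% to 14.2% of entries), so near-identical copies are under-counted. Spike-in and summary entries were left out.

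Symbols were found for 29201 of 32520 identifiers (89.8%); RefSeq genes of GRCz12tu served for synonyms only. Genes retained by filterByExpr (minimum count 10, grouped by pole and inner) were tested with the quasi-likelihood test of edgeR 4.0.16 (R 4.3.3) with TMM, 2-sided, with Benjamini-Hochberg adjustment over all genes and calls at an adjusted p under 0.05. The pooled comparison had 2 coefficients, and the single-pole comparisons a fit with 3 (A, E and inner). The function was tested on simulated data. Standard errors are the absolute log2 difference divided by the square root of F. DESeq2 1.42.0, RLE factors, library sizes alone, the authors' factors, other filters, oocyte blocks, a coefficient per segment, axial position, and each library and oocyte left out were alternatives. Named genes have a symbol and a mean of at least 10 CPM: up to 6 with the smallest p in each 1-pole class, up to 10 in each direction with both pole means beyond all inner means (1 of the 10 higher is not reported here), all genes of opposite direction, and called members of the lists. The groups, lists and tests were chosen with earlier results of these data known. The 2 entries whose names resemble ribosomal protein genes were taken off that list after the values were seen.

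Oocyte numbers pair the libraries by source. Deviations from the segment means correlated at a median of 0.0706 between libraries of 1 oocyte (28 pairs, -0.0902 to 0.307) and -0.0352 between others.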

Additional observations from a re-analysis of the deposited data

Results flagged for a closer look

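Of 120 groups of 4 libraries searched for a library far from the others, 6 were picked out, where chance gives about 6 (1 in 20). For aurka, segment A of oocyte 4 had 400.3 CPM, against 512.8 to 530.7 in the other animal libraries. For WASL, segment C of oocyte 3 had 431 CPM, against 172.1 to 172.9 in the other C libraries. For PLPP3, the same library had 250.1 CPM, against 89.4 to 100.1. For VRTN, segment A of oocyte 2 had 81.69 CPM, against 19.45 to 25.03 in the other animal libraries. For TDRD6, segment C of oocyte 4 had 407.9 CPM, against 159.7 to 195.7 in the other C libraries. The number of genes with a read was 9956 in segment A of oocyte 4, against 10580 to 10640 in the other animal libraries.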

How the results depend on the processing

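With RLE factors or library sizes alone, every count kept within 1.5 times. With the authors' factors 209 genes were lower at the pooled poles, segment A was higher in 1 and lower in 416, segment E higher in 42 and lower in 71, 7 genes were lower at both poles, 1 higher and 64 lower at the animal pole only, 14 higher and 31 lower at the vegetal pole only, and 27 opposite. With no filter on low counts, 2 genes were higher at the pooled poles (sybu and MAP3K1) and 2 at both poles, segment A was higher in 45 and lower in 43, segment E higher in 110 and lower in 41, 23 were higher and 14 lower at the animal pole only, and 44 were opposite. With a minimum mean of 10 CPM, segment A was higher in 1 gene, also at the animal pole only. DESeq2 gave 1 gene lower at the pooled poles and 1 at both poles, 7 higher and 96 lower in segment A, 130 lower in segment E, 5 higher and 49 lower at the animal pole only, 88 lower at the vegetal pole only, and 14 opposite. A coefficient per segment gave 4 higher at the pooled poles, and axial position gave 3, also with the replicate block.

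With the oocyte as a replicate block, segment A was higher in 4 genes, 4 at the animal pole only, and the calls of DND1 in segment E and PAWR in segment A were lost, while shcbp1 and FER passed in segment E (edgeR adjusted p of 0.0496 and 0.0490); of the other named genes no call changed. With the block and the authors' factors, 132 were lower at the pooled poles, 464 in segment A, 68 in segment E and 10 at both poles; 42 were higher in segment E, 1 was higher and 66 lower at the animal pole only, 13 higher and 28 lower at the vegetal pole only, and 28 opposite. With the authors' factors chosen after seeing the data to go without oocyte 1, segment A was higher in 0 and lower in 84, segment E higher in 11 and lower in 3, the animal pole only had 0 and 36, and the vegetal pole only 5 and 3. With them and without segment C of oocyte 3, also chosen after seeing the data, 1 was higher and 176 lower at the pooled poles, segment A was higher in 1 and lower in 472, segment E higher in 41 and lower in 87, 10 were lower at both poles, 1 higher and 74 lower at the animal pole only, 10 higher and 35 lower at the vegetal pole only, and 30 opposite. The cause was not tested.

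With 1 library or oocyte left out, the pooled poles gave 0 to 1 higher and 0 lower, segment A 0 to 11 higher and 0 to 16 lower, segment E 33 to 75 higher and 2 to 25 lower, and both poles 0 in either direction. The animal pole only gave 0 to 10 higher and 0 to 6 lower, the vegetal pole only 29 to 67 higher and 2 to 25 lower, and 0 to 10 were opposite. The single pooled call was MAP3K1, without segment A of oocyte 2 or 3 or segment C of oocyte 3. Segment A was higher in 11, 4 and 7 genes without segment B of oocyte 1, 2 and 4, and in 1 without any 1 library of A, D, E of oocyte 1 or 3, or C of oocyte 1, 2 or 4. Segment A was lower in 4, 3, 1 and 5 genes without its libraries of oocytes 1 to 4 in turn, and in 16 without segment B of oocyte 1. Segment E was higher in 45 genes without its library of oocyte 1, and lower in 4 and 5 without those of oocyte 1 and 3; without oocyte 4 it was higher in 34 and lower in 9, and the vegetal pole only had 9 lower; the vegetal pole only had 41 and 40 higher without segment E of oocyte 1 and 4. The opposite genes were 2, 0 and 2 without segment A of oocytes 2, 3 and 4, and 10 without segment B of oocyte 1. Where an oocyte left out removes a library of each pole, fewer libraries are compared.

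Some differences that had not passed changed sign. In segment A, FER was at 0.26 log2 units and reached -0.29 with the authors' factors, -0.18 with the block, -0.73 with both, -0.083 with the authors' factors without oocyte 1, -0.39 with them without segment C of oocyte 3, and -0.58 to 0.67 with libraries left out. With the authors' factors, with the block added, without oocyte 1 and without segment C of oocyte 3, in that order, segment A reached -0.21, -0.18, -0.20 and -0.28 for BCKDK and -0.51, -0.53, -0.48 and -0.52 for MAP3K7. MAP3K7 also reached -0.048 without segment A of oocyte 4, -0.019 without segment D of oocyte 1 and -0.022 without oocyte 4, against up to 0.121 without segment C of oocyte 4, and FER -0.46 without oocyte 4. In segment A, shcbp1 reached -0.065 with the block and the authors' factors, and RPL28 -0.23 with these factors without oocyte 1, where TRAF7 reached -0.042 in segment E.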
